A study of Mus musculus with 48 samples.

Results

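The transcripts examined here encode the proteins of the cytosolic ribosome, measured by RNA-seq in mouse jejunum. Members were protein-coding rows whose symbol was Rpl or Rps followed by a digit, or Rpsa, Rplp0, Rplp1 or Rplp2, after removal of Rps6k kinases, processed copies named -ps, and rows with a mean under 10 CPM (counts scaled to a fixed library total). The rule kept 80 of 55401 gene rows, 47 for the large subunit (Rpl) and 33 for the small subunit (Rps). It also took in Rps19bp1, whose product binds Rps19 and is not itself part of a subunit, and Rps27rt, a retrotransposed copy of Rps27. The rule reads symbols only. Whether the product of a paralog such as Rpl7l1 is part of a subunit was not checked.

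The cytosolic ribosome pairs a small subunit, which reads the mRNA, with a large subunit, which forms peptide bonds, and most of its proteins are needed in one copy each. Many ribosomal protein mRNAs begin with a run of pyrimidines at the cap, the terminal oligopyrimidine (TOP) tract, through which mTORC1 controls their translation together. Intestinal epithelium renews quickly and secretes and absorbs heavily, so ribosome supply is a large cost of this tissue, and in mouse liver the circadian clock is known to act on ribosome biogenesis.

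The samples came from Bmal1iec-/- mice (knockout), in which loss of the clock activator Bmal1 is aimed at intestinal epithelial cells (the iec of the label), and from bmal1fl/fl mice (control), which carry the floxed allele. Both were kept in constant darkness, and jejunum was taken every 4 h from CT1 to CT21 (CT, circadian time). Each of the 12 groups held 4 libraries, except knockout CT9 with 3, for 23 knockout and 24 control libraries. Driver of the deletion, sex and age: not given in the sources used here. Nothing in the labels says that libraries of a group came from separate mice, and the p-values then measure only how these libraries vary, which may be technical. The tissue is whole jejunum: fewer cells of a type and less RNA per cell cannot be told apart.

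Library totals ran from 4.34 to 6.91 M counts. All 10 enterocyte markers were detected, with a summed level of 27110 to 50840 CPM in knockout and 26140 to 47790 CPM in control libraries. Counts of Arntl, the gene of Bmal1, spanned 18.4 to 37.0 CPM over all knockout groups, whereas in control they lay at 66.1 to 89.5 CPM at CT21 and at 8.48 to 11.3 CPM at CT9. These are counts over the whole gene and do not separate the deleted exons. A set of 5 libraries stood apart from the others, namely knockout CT1 replicates 1, 2 and 3, knockout CT21 replicate 4 and control CT21 replicate 1. In those 5 the relative level of a gene fell with its length, with a slope of -0.31 to -0.13 log2 units per doubling of length, against -0.05 to 0.06 in the other 42. Ribosomal protein mRNAs are short (median exonic length 829.5 bases), so the tests are given with all libraries and without these 5.

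The sequence around the transcription start of members that the results turn on is shown here because the TOP tract lies there. Each line gives bases 20 before to 20 after the RefSeq start on the gene's own strand (GRCm38.p6), in lower case, with capitals for the longest run of a C followed by at least 5 pyrimidines that began inside this window. Shorter runs are left in lower case. Rpl28, Rpl38, Rps27l, Rpl7a, Rpl9 and Rps19bp1 are the members that differed between genotypes over all times, Rpl7l1 was rhythmic, Rps27 is the paralog of Rps27l, and Rps6 is the small-subunit protein phosphorylated downstream of mTORC1.
Rpl28: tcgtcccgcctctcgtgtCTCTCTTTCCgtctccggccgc
Rpl38: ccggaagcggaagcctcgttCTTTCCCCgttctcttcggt
Rps27l: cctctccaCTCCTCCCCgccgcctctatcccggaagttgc
Rpl7a: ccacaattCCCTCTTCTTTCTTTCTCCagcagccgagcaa
Rpl9: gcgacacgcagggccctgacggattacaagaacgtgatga
Rps19bp1: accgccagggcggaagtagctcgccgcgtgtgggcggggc
Rpl7l1: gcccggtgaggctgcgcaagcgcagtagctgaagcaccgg
Rps27: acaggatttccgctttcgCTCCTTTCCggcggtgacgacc
Rps6: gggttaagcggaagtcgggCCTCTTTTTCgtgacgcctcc

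In order, these windows are chr7:4792945-4792984 on the plus strand, chr11:114668560-114668599 on the plus strand, chr9:66946066-66946105 on the plus strand, chr2:26910787-26910826 on the plus strand, chr5:65391412-65391451 on the minus strand, chr15:80264287-80264326 on the minus strand, chr17:46782637-46782676 on the minus strand, chr3:90213629-90213668 on the minus strand and chr4:86857348-86857387 on the minus strand. For Rps27l, 1 of 2 RefSeq starts is shown, chosen as the one with the longest run. In Rpl28, Rpl38, Rps27 and Rps6 the run began at or within 2 bases of the annotated start. In Rps27l and Rpl7a the run began 12 bases before the start. The Rps27l run also ended before the start, so it lies outside the transcript as annotated from there. RefSeq promoter entries were found for 60 of the 80 members, with 71 starts. Such a run began within 20 bases of the start at 44 of them (62.0%), against 31.9% of all 32851 starts. The motif CACGTG, which reads the same on both strands and is the canonical site of the CLOCK:BMAL1 pair, stood within 250 bases before to 50 after the start at 8 of the 71 (11.3%), against 7.15% of all starts. A match is a description of the letters only.

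Levels across the family were uneven. Per kilobase of exonic length, the highest members averaged 735 CPM for Rps27, 731 CPM for Rps12 and 661 CPM for Rpl10, a protein that joins the large subunit late in its assembly. These levels depend on the transcript length used: with the union of all annotated exons as length, Rps27 was at 243 CPM, Rps12 at 194 CPM and Rpl10 at 266 CPM per kilobase, and the highest were Rps3a1 at 561, Rplp1 at 494 and Rplp0 at 451. With the principal transcripts, the lowest were Rps19bp1 at 13.6, Rpl13a at 15.7 and Rps27rt at 32.7 CPM per kilobase. By mean CPM, Rps19bp1 (11.4) and Rps27rt (12.2) lay just inside the limit of 10, and Rps10 (4.20) and Rpl24 (2.22) just outside it. Exons of Rps10, Rpl24, Rpl36al and Rpl13a overlap read-through genes on the same strand, and 296 rows named as Rp pseudogenes took counts equal to 3.04% of those in members. Counts of these genes are therefore uncertain, since how the authors' counting treated shared reads is not given in the sources used here. The tissue-restricted paralogs were near zero, with 0 counts in all libraries for Rpl10l, 3 for Rpl39l and 26 for Rpl3l. For Rpl10l, 0 counts allow a level of up to 0.434 to 0.692 CPM per library.

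As a family, ribosomal protein transcripts took about the same share of counts in both genotypes outside the 5 libraries, with the widest gap at CT17. Over the other 42, the share ran from 1.84% through a median of 2.19% to 2.82% in 19 knockout libraries, and from 1.91% through 2.16% to 2.65% in 23 control libraries. The ranges of the genotypes overlapped almost fully. With the 5 libraries, which held 2.55% to 3.92%, the mean over groups was 2.46% in knockout and 2.25% in control.

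**Figure D1:**
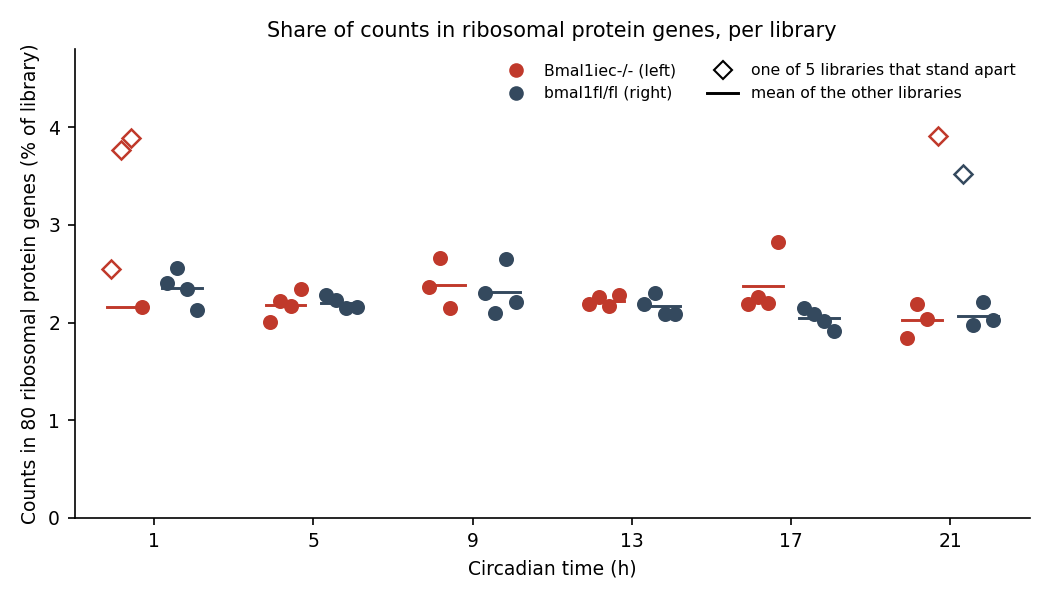
Percent of each library's counts in the 80 ribosomal protein genes (y axis) by circadian time in hours (x axis), with knockout libraries left of control libraries at each time, open diamonds for the 5 libraries that stand apart and bars for the mean of the others. Of the 5, 4 lie above every other library, at 3.52% to 3.92%, and 1 of them, at 2.55%, lies within the range of the other 42 (1.84% to 2.82%).

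By group the same share, without the 5 libraries, moved little. It averaged 2.39% ± 0.25 (SD, n = 3) in knockout and 2.32% ± 0.24 (n = 4) in control at CT9, the highest knockout mean. At CT21 it averaged 2.02% ± 0.17 in knockout (n = 3) and 2.07% ± 0.12 in control (n = 3), among the lowest. The largest gap was at CT17, with 2.37% ± 0.30 in knockout and 2.04% ± 0.10 in control (n = 4 each). The 4 knockout libraries of CT17 lay between 2.19% and 2.82% and all exceeded the 4 control libraries, at 1.91% to 2.15%.

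Averaged over the 6 times, 6 of the 80 members were higher in knockout and 0 lower, at an adjusted p under 0.05. Of all 15646 genes tested, 12.4% were higher and 11.3% lower by the same rule, so the members were not called more often than genes at large. The median log2 fold change of members was 0.16, against -0.01 over all genes, and 78 of 80 members were above 0. The number of all genes above 0 was not counted. Members come from the same libraries, so their signs are not separate evidence. Leaving out the 5 libraries gave a median of 0.03, with 57 above 0, and 5 called members (10.4% of all genes were called higher and 11.2% lower). All 5 were among the 6: Rpl28, Rpl38, Rps27l, Rpl7a and Rpl9. At an unadjusted p under 0.05 there were 33 members with all libraries (41.2%, against 34.8% of all genes) and 9 without the 5 (11.2%, against 32.3% of all genes). Markers of immune cells moved over the same contrast: 10 of 10 T cell markers were lower in knockout (median -1.30), with sums of 55.7 to 126.9 CPM in knockout and 105.2 to 395.5 CPM in control. Of 10 B and plasma cell markers, 9 were lower (median -1.51), with sums of 277.7 to 1163 CPM in knockout and 535.2 to 1394 CPM in control, and no marker of either list was at 0 in all libraries. Their part in the result was not tested.

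**Figure D2:**
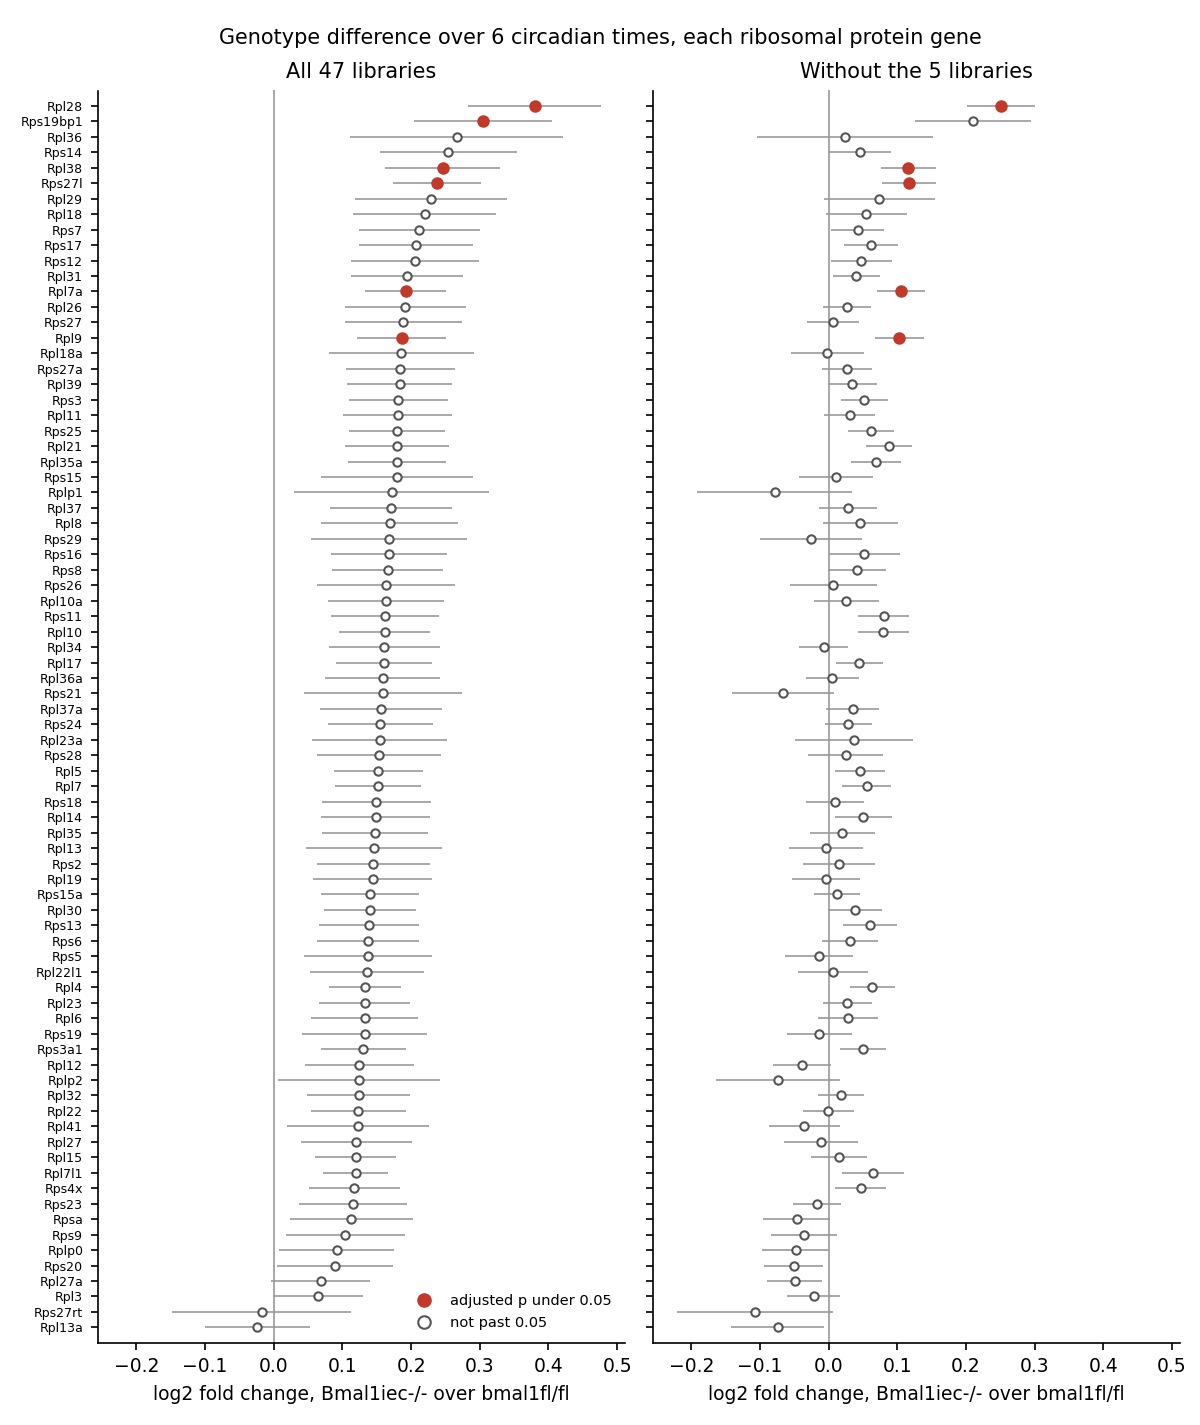
Log2 fold change of knockout over control averaged over 6 circadian times (x axis) for each of 80 genes (y axis), with bars of 1 SE, for all 47 libraries (left) and without the 5 libraries (right), and filled points for an adjusted p under 0.05. With all libraries nearly every gene lies right of 0, around a median of 0.16, and without the 5 libraries most lie near 0, around a median of 0.03, with Rpl28 farthest right in both panels.

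Among large-subunit proteins, Rpl28 (ENSMUSG00000030432.12, GRCm38 chr7:4792874-4795066, plus strand) showed the largest rise. At CT13 its level was 313.0, 327.0, 282.3 and 327.6 CPM in knockout libraries and 256.5, 278.0, 247.6 and 236.6 CPM in control libraries. At CT17 it was 295.1, 298.9, 276.6 and 449.7 CPM in knockout and 243.3, 261.1, 233.7 and 234.0 CPM in control. At CT9 it was 323.4, 317.3 and 315.1 CPM in knockout and 288.4, 271.0, 305.5 and 281.6 CPM in control. Every knockout library lay above every control library at these 3 times, and also at CT1, while the groups overlapped at CT5 and CT21. Such a separation was seen in 9.18% of all genes at CT1, 6.61% at CT9, 7.78% at CT13 and 5.37% at CT17.

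Over all times Rpl28 was higher in knockout by 0.38 (log2 fold change, SE 0.10, adjusted p = 0.00290), and by 0.25 without the 5 libraries (SE 0.05, adjusted p = 0.000129). Without them its fold changes ran from 0.12 at CT21 to 0.45 at CT17 and were above 0 at all 6 times. Its exons overlap those of Ube2s on the opposite strand. Whether the counting used strand is not given in the sources used here, so reads of the 2 genes may not be separate.

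The other 3 large-subunit members rose less. Rpl38, whose loss in mice disturbs translation of Hox mRNAs, ranged from 106.0 through a median of 130.8 to 165.7 CPM in knockout and from 105.6 through 121.5 to 146.3 CPM in control, outside the 5 libraries. Rpl7a ranged from 425.8 through 505.0 to 639.5 CPM in knockout and from 424.7 through 470.6 to 520.8 CPM in control. Rpl9 ranged from 314.8 through 374.6 to 436.0 CPM in knockout and from 297.6 through 346.5 to 408.9 CPM in control. In each the knockout and control ranges overlapped broadly, and the median and both ends of the range were higher in knockout.

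With all libraries the log2 fold change was 0.25 for Rpl38 (SE 0.08, adjusted p = 0.0270), 0.19 for Rpl7a (SE 0.06, adjusted p = 0.0136) and 0.19 for Rpl9 (SE 0.06, adjusted p = 0.0303). When the 5 libraries were left out it was 0.12 for Rpl38 (adjusted p = 0.0319), 0.11 for Rpl7a (adjusted p = 0.0249) and 0.10 for Rpl9 (adjusted p = 0.0324). All 3 were above 0 at each of the 6 times in that fit. With upper-quartile scaling the calls of Rpl38 (adjusted p = 0.0522) and Rpl9 (adjusted p = 0.0693) were lost.

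On the small-subunit side, Rps27l rose and its paralog Rps27 was not called. Rps27l, which is known as a p53-regulated gene, ranged from 82.2 through 99.5 to 122.3 CPM in knockout and from 79.1 through 90.8 to 107.4 CPM in control, outside the 5 libraries. Its log2 fold change was 0.24 with all libraries (SE 0.06, adjusted p = 0.00464) and 0.12 without the 5 (SE 0.04, adjusted p = 0.0247). Restricted to CT5, CT9, CT13 and CT17, the times with none of the 5, its log2 fold change was 0.11 and the call was lost (adjusted p = 0.0653). Rps27 ranged from 187.8 through 232.6 to 274.0 CPM in knockout and from 198.6 through 226.9 to 268.5 CPM in control without the 5, with a log2 fold change of 0.01 (SE 0.04, adjusted p = 0.939). With all libraries the log2 fold change of Rps27 was 0.19 (SE 0.085, adjusted p = 0.104), nearer to that of Rps27l. At CT1 with all libraries it was 0.77 for Rps27 and 0.84 for Rps27l. The difference between the paralogs was not tested.

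Rps19bp1 was the least abundant called member. It ranged from 9.07 through 11.5 to 15.1 CPM in knockout and from 6.70 through 9.75 to 13.6 CPM in control, outside the 5 libraries. Its log2 fold change of 0.30 (SE 0.10, adjusted p = 0.0222) became 0.21 without the 5 libraries (SE 0.08) and did not pass the test (adjusted p = 0.0716).

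**Figure D3:**
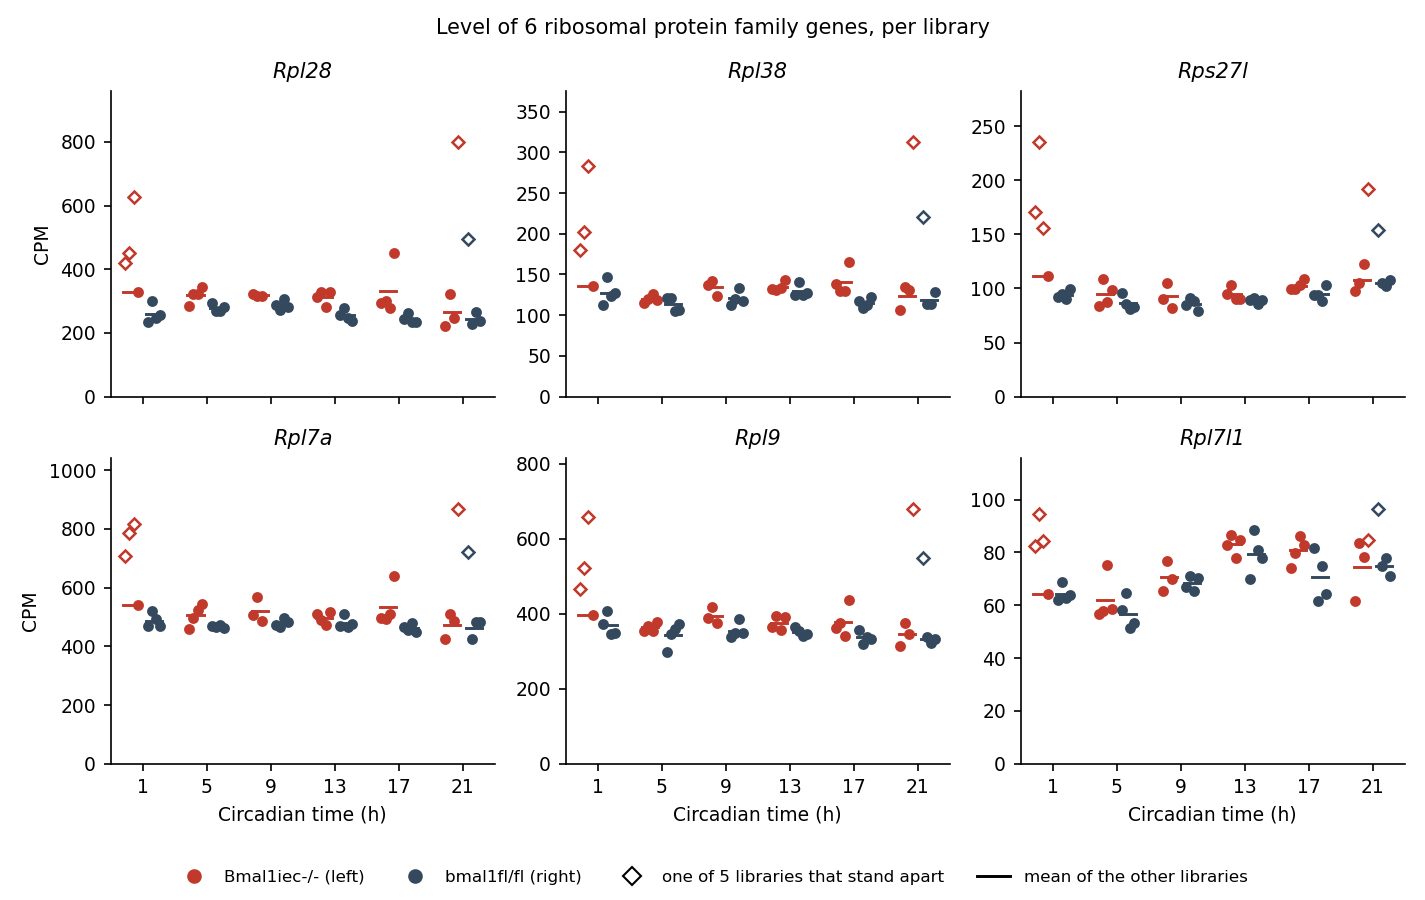
Level in CPM (y axes, from 0) of Rpl28, Rpl38, Rps27l, Rpl7a, Rpl9 and Rpl7l1 in every library by circadian time in hours (x axes), with knockout left of control, open diamonds for the 5 libraries that stand apart and bars for the mean of the others. The diamonds lie above the other libraries of their own group in all panels, reaching 801.1 CPM for Rpl28, and the bars of Rpl28 are higher in knockout than in control at all 6 times.

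The stalk proteins, Rpsa, Rps6 and Rps27a were not called over all times. The stalk proteins Rplp0, Rplp1 and Rplp2, which recruit elongation factors to the large subunit, had log2 fold changes of 0.09 (SE 0.08), 0.17 (SE 0.14) and 0.12 (SE 0.12), and of -0.05, -0.08 and -0.07 without the 5 libraries. Rpsa, also known as a laminin receptor precursor, had 0.11 (SE 0.09), and -0.05 without the 5. Rps6 had 0.14 (SE 0.07, adjusted p = 0.190), and 0.03 without the 5 (SE 0.04). Rps27a, which is made as a fusion with ubiquitin, had 0.18 (SE 0.08, adjusted p = 0.0868), and 0.03 without the 5. Their values without the 5 libraries lay within 1 SE of 0.

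Rpl22l1, Rpl22, Rpl7l1 and Rpl7 were not called either. Rpl22l1, which can stand in for Rpl22, had a log2 fold change of 0.14 (SE 0.08), and Rpl22 of 0.12 (SE 0.07). In the fit without the 5 both were at 0.01 or closer to 0. Rpl7l1, the paralog of Rpl7, had 0.12 (SE 0.05, adjusted p = 0.0630) and Rpl7 0.15 (SE 0.06, adjusted p = 0.0705), or 0.06 each without the 5. Rpl36a, Rpl39 and Rps4x had 0.16, 0.18 and 0.12, or 0.01, 0.03 and 0.05 without the 5, and none of these passed the test.

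Time by time, the genotypes differed in this family at CT1 with all libraries. At CT1, 60 of 80 members were higher in knockout and 0 lower, where 12.8% of all genes were higher and 8.24% lower. The median of members was 0.63 (log2), and the largest rise was that of the large-subunit gene Rpl36, at 97.6, 115.0, 124.8 and 54.6 CPM in knockout and 36.7, 47.4, 53.3 and 43.3 CPM in control (1.12, SE 0.38, adjusted p = 0.0328). Rplp1 followed at 1.02 (SE 0.35, adjusted p = 0.0330). Rps27l, with the smallest adjusted p, was at 170.4, 236.0, 155.6 and 111.3 CPM in knockout and 92.0, 94.7, 90.0 and 99.8 CPM in control (0.84, SE 0.15, adjusted p = 0.000484).

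The CT1 difference followed 3 of the 4 knockout libraries, all of them among the 5. In 75 members those 3 libraries were each above every control library of CT1. Neither this count nor the next was made over all genes, so whether they are particular to the family is not known. The other knockout library, replicate 4, lay inside the control range for 63 members, above it for 10 and below it for 7. When the 5 are left out, knockout CT1 holds that library alone, which is assumed to vary like the other groups. The median of members was then -0.04, and 0 of 80 were called either way (0.146% of all genes were higher and 0.085% lower), with 0 at an unadjusted p under 0.05.

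By transcript length, the median CT1 fold change was 0.74 over the 27 shortest members (345 to 667 bases), 0.61 over the 26 of middle length and 0.50 over the 27 longest (946 to 5130 bases). By subunit the median was 0.60 over 47 large-subunit and 0.64 over 33 small-subunit members. By GC content it was 0.54 over the 27 lowest, 0.62 over the middle 26 and 0.65 over the 27 highest. The 3 libraries were not alike in this: on a log2 scale relative to each gene's own median over libraries, members of knockout CT1 replicate 2 stood at 1.10, 0.85 and 0.80 from lowest to highest GC, and at 1.19, 0.76 and 0.79 from shortest to longest. Replicates 1 and 3 rose with GC, at 0.36, 0.46 and 0.53 in replicate 1 and 0.77, 0.92 and 1.06 in replicate 3. The slope of relative level on GC fraction ran from -0.36 to 6.75 in the 5 libraries and from -2.35 to 2.49 in the others. When the 5 were left out, the CT1 medians were -0.0049 for the shortest, -0.02 for the middle and -0.07 for the longest members, and -0.05 for the large and -0.02 for the small subunit. With all libraries, the summed enterocyte markers stood higher at 33650 to 50840 CPM in knockout CT1 against 26140 to 31230 CPM in control CT1. Summed T cell markers stood lower, at 75.8 to 104.0 CPM against 120.1 to 299.6 CPM. The knockout sums include the 3 libraries. Gene by gene, 4 of 10 enterocyte markers were called higher and 0 lower, and 7 of 10 T cell markers lower and 0 higher (12.8% of all genes higher and 8.24% lower). The part of cell composition and of the length dependence in the CT1 result was not tested.

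**Figure D4:**
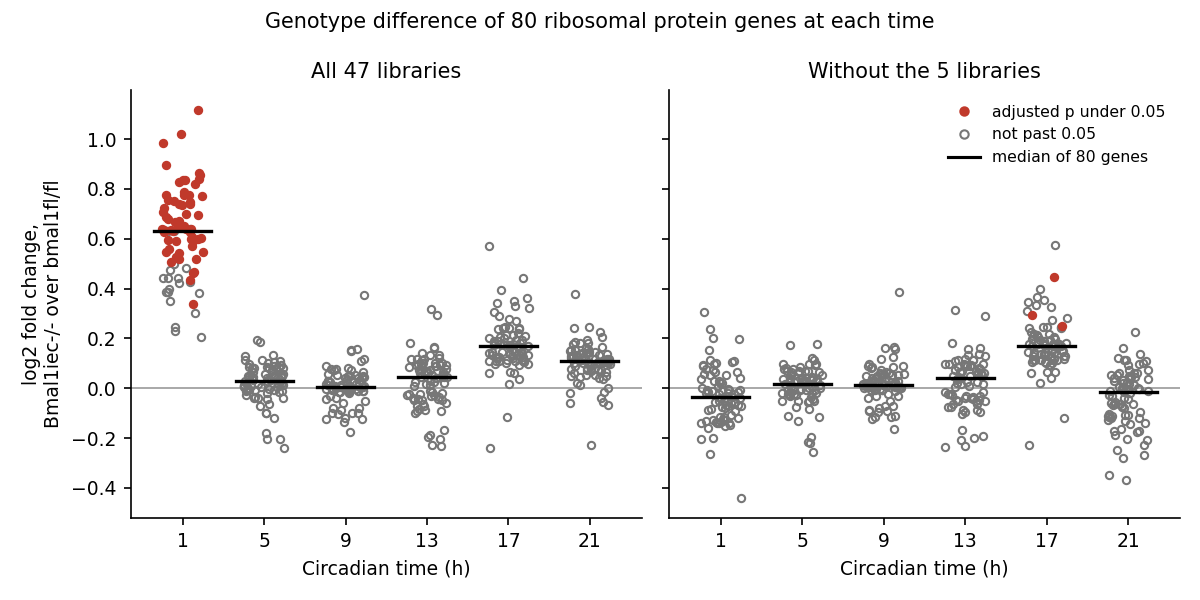
Log2 fold change of knockout over control for 80 genes (y axis) at each circadian time in hours (x axis), for all 47 libraries (left) and without the 5 libraries (right), with filled points for an adjusted p under 0.05 and bars for the median. The CT1 median is 0.63 with all libraries and -0.04 without the 5, whereas at CT17 it is 0.17 in both panels.

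At CT5, CT9, CT13 and CT21 no member passed the test in either direction with all libraries. Among all genes the share called there was 0.53% higher and 0.371% lower at CT5, 1.59% and 2.42% at CT9, 2.06% and 1.41% at CT13, and 0.684% and 0.767% at CT21. Nor did any member reach an unadjusted p under 0.05 at these times. Of all genes, 7.69% did at CT5, 12.8% at CT9, 14.7% at CT13 and 10.4% at CT21. Leaving out the 5 libraries also gave 0 called members at each, where the share of all genes was 1.1% higher and 0.711% lower at CT5, 2.76% and 3.8% at CT9, 4.11% and 3.1% at CT13, and 0.863% and 0.917% at CT21. In that fit Rpl17, Rpl28 and Rpl4 (3.75% of members) had an unadjusted p under 0.05 at CT13, against 20.4% of all genes. The member medians were 0.03 at CT5, 0.01 at CT9 and 0.04 at CT13, or 0.02, 0.01 and 0.04 without the 5. At CT21 the median was 0.11, or -0.02 without the 5 libraries, -0.28 without knockout CT21 replicate 4 and 0.36 without control CT21 replicate 1. Each of those libraries was the highest of its own group for all 80 members.

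At CT17, 78 of 80 members were above 0 with and without the 5 libraries, against 27 to 54 at the other times without them. Members were read from the same libraries, so their signs are not separate evidence. How many of all genes were above 0 was not counted. The member median was 0.17 with and without the 5, against 0.01 over all genes. With all libraries 0 members were called (0.716% of all genes were higher and 1.51% lower). Without the 5, Rpl28 (0.45, SE 0.11, adjusted p = 0.00659), Rpl38 (0.29, SE 0.09, adjusted p = 0.0328) and Rpl10 (0.25, SE 0.08, adjusted p = 0.0497) were called higher and 0 lower, where 2.26% of all genes were higher and 2.93% lower, and 27 members (33.8%) had an unadjusted p under 0.05, against 18% of all genes. Rpl10 was at 543.0, 544.9, 503.5 and 664.9 CPM in knockout and 491.1, 469.7, 484.1 and 456.4 CPM in control.

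Members whose groups did not overlap were counted at each time. Every knockout library was above every control library in 10 members at CT17, among them Rpl10, Rpl28, Rpl38 and Rpl7a, against 5.37% of all genes. The count was 10 at CT1 (9.18% of all genes), 0 at CT5 (4.44%), 1 at CT9 (6.61%), 4 at CT13 (7.78%) and 0 at CT21 (1.9%). Every knockout library was below every control library in 1 member at CT5, Rpl13a (3.3% of all genes), and in 0 at CT1 (7.48%), CT9 (5.73%), CT13 (5.89%), CT17 (5.48%) and CT21 (2.42%). Summed enterocyte markers were 30990 to 35170 CPM in knockout and 36790 to 47790 CPM in control at CT17. Summed T cell markers were 70.4 to 104.5 CPM in knockout and 195.6 to 378.6 CPM in control. A sum weighs the most abundant markers. Gene by gene with all libraries, 1 of 10 enterocyte markers was called lower and 0 higher, and 9 of 10 T cell markers lower and 0 higher (1.51% of all genes lower and 0.716% higher). Their part in the CT17 values was not tested.

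Knockout CT17 replicate 4 was high across the family, with the highest share of counts of the 42 libraries (2.82%). Without it and the 5 libraries, 0 members were called at CT17 and the median was 0.05. Over all times, 5 members were called in that fit too. Rpl28 was among them, with a log2 fold change of 0.22. The share of all genes called in that fit was not counted.

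Whether the genotype difference varied between times was tested by an interaction. It was called for 0 of 80 members, against 1.28% of all genes. An unadjusted p under 0.05 was reached by 2 members (Rpl34 and Rps27l, 2.5%), against 11.8% of all genes. Without the 5 libraries it was called for 0 members (1.34% of all genes), with 0 at an unadjusted p under 0.05. Leaving out knockout CT21 replicate 4 alone gave 15 called members, and the share of all genes was not counted in that fit. With all libraries, the fold changes at CT1 or CT17 are thus not shown to differ from those at other times.

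Rhythms over the day were fitted with a 24-h cosine per genotype. In knockout, 21 members were called rhythmic with all libraries, against 15% of all genes, and 65 (81.2%) had an unadjusted p under 0.05, against 33.6% of all genes. Those with the smallest adjusted p were Rps27l (amplitude 0.39, adjusted p = 0.000947), Rpl22l1 (0.37, adjusted p = 0.0120), Rpl13a (0.33, adjusted p = 0.0165), Rpl34 (0.32, adjusted p = 0.0207) and Rps21 (0.44, adjusted p = 0.0233). Their peaks were at CT23.3, CT1.18, CT23.0, CT23.7 and CT23.2. The 4 knockout libraries among the 5 were sampled at CT21 and CT1. Over the family, 78 of 80 knockout peaks fell within 2 h either side of CT24, and 0 without the 5 libraries. The share of all genes with a peak in that window was not counted, so whether this is particular to the family is not known. None of the 21 was called without the 5 libraries. The fitted knockout peaks of the 80 members then had a median of CT11.9 and the control peaks of CT7.97.

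In control, 1 of 80 members was called rhythmic, against 21.1% of all genes. This was Rpl7l1, with an amplitude of 0.20 (log2) and a peak at CT16.6 (adjusted p = 0.0186). At CT5 its level was 56.9 to 75.3 CPM in knockout and 51.2 to 64.7 CPM in control, and at CT13 it was 78.0 to 86.6 CPM in knockout and 70.0 to 88.4 CPM in control. The ranges of the 2 times did not overlap in either genotype. The share of all genes that separate in this way was not counted. Rpl7l1 is described here for its rhythm in these same libraries, so the separation is not added evidence of that rhythm. Without control CT5 replicate 3 or replicate 4 the control rhythm was lost (adjusted p up to 0.0673).

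Rpl7l1 was rhythmic in both genotypes without the 5 libraries. Its amplitude was 0.22 with a peak at CT15.4 in knockout (adjusted p = 0.00243) and 0.18 with a peak at CT15.9 in control (adjusted p = 0.00264). In that fit 3 members were called in knockout, against 10.9% of all genes: Rpl7l1, Rpl17 (0.14, CT11.1) and Rps27 (0.15, CT12.3). In control 8 were called, against 29.6% of all genes. Besides Rpl7l1 they were Rpl3, a core protein of the peptidyl transferase region, with amplitude 0.15 and a peak at CT4.78, Rpl22l1 (0.17, CT4.08), Rpl22 (0.10, CT5.00), Rpl4 (0.09, CT5.36), Rps20 (0.13, CT6.13), Rpl17 (0.11, CT7.26) and Rps27l (0.13, CT20.7). An F test of any difference between the 6 times called 3 members in knockout (8.63% of all genes) and 6 in control (26.4%) without the 5, and 25 in knockout (12.8%) and 1 in control (15.7%) with all libraries. The amplitudes named here are of the order of the spread between replicates, whose median SD over members was 0.12 (log2).

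A difference in rhythm between the genotypes was called for 0 of 80 members, against 1.57% of all genes. An unadjusted p under 0.05 was reached by 3 (Rpl34, Rps21 and Rps27l, 3.75%), against 10.2% of all genes. Without the 5 libraries it was also 0, against 1.58%. In that fit 4 members (5%) had an unadjusted p under 0.05, against 9.51% of all genes. The smallest adjusted p was 0.409 for Rps27l with all libraries and 0.442 for Rpl17 without the 5.

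**Figure D5:**
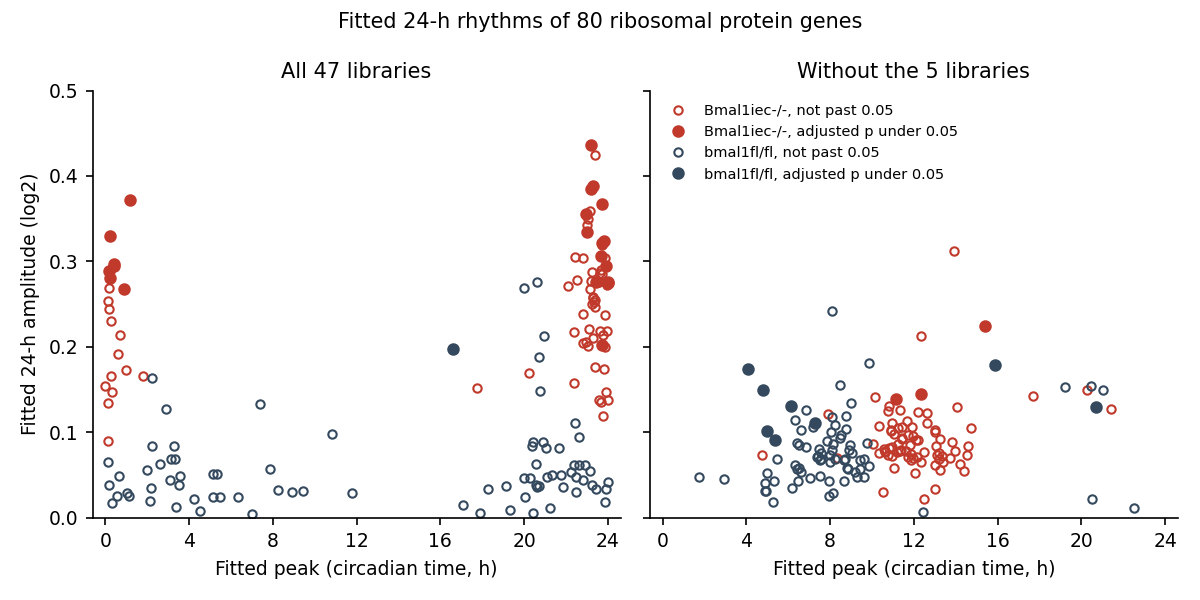
Amplitude of the fitted 24-h rhythm (y axis, log2) against its fitted peak (x axis, circadian time in hours) for 80 genes in knockout and control, for all 47 libraries (left) and without the 5 libraries (right), with filled points for an adjusted p under 0.05. With all libraries the 21 called knockout rhythms gather around CT24 at amplitudes of 0.20 to 0.44, and without the 5 libraries the family's median amplitude is 0.08 in knockout and 0.07 in control.

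Genes that build or use ribosomes gave the following counts over all times. Of all genes, 12.4% were higher and 11.3% lower, or 10.4% and 11.2% without the 5 libraries. Of 56 ribosome biogenesis factors, 7 were higher in knockout and 0 lower, and 1 was higher and 0 lower without the 5. Nob1, the nuclease that makes the end of small-subunit rRNA, rose by 0.18 (adjusted p = 0.0169) and Bop1, a large-subunit processing factor, by 0.24 (adjusted p = 0.0177), and neither was called without the 5. The gene called without the 5 was Nop14, a small-subunit processome factor (0.12, adjusted p = 0.0371, and 0.13 without the 5, adjusted p = 0.0458). Of 29 other translation genes, many with TOP mRNAs, 6 were higher and 1 lower, or 2 and 2 without the 5. Tpt1, a TOP mRNA, rose by 0.21 (adjusted p = 0.00353), and by 0.12 without the 5 (adjusted p = 0.00863). Nap1l1, a histone chaperone with a TOP mRNA, fell by 0.19 (adjusted p = 0.00223), and by 0.17 without the 5 (adjusted p = 0.00417).

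Of 21 genes of mTORC1 and of regulators of TOP mRNAs, 2 were higher and 0 lower, or 3 and 1 without the 5 libraries. Mlst8, a subunit of mTORC1, rose by 0.23 (adjusted p = 0.000363) and by the same amount without the 5 (0.23, adjusted p = 0.00226). Rptor, which recruits mTORC1 substrates, rose by 0.17 (adjusted p = 0.00378) and was not called without the 5 (0.12, adjusted p = 0.0716). The median log2 fold changes of these 3 lists were 0.06, 0.09 and 0.02 with all libraries, and 0.04, 0.03 and 0.03 without the 5.

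Proteins of the mitochondrial ribosome, a separate particle also encoded in the nucleus, are set beside the cytosolic set. That list was added after the values were seen. Of 77 tested, 61 were higher in knockout and 0 lower, with a median of 0.24, against 12.4% of all genes higher and 11.3% lower. Without the 5 libraries 44 were higher and 0 lower, with a median of 0.16 (10.4% and 11.2% of all genes), where the cytosolic median was 0.03. The difference between the lists was not tested.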

How the data were processed

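Total RNA of jejunum was made into TruSeq stranded mRNA libraries, per the labels' protocols. The authors deposited a table of raw counts per Ensembl gene. The submitters' processing notes name the build mm10, DESeq2 1.22.0, featureCounts 1.4.6, SAMtools 1.3.1, STAR 2.7.5c, Trimmomatic 0.39 and FastQC 0.11.5, with no role or setting. Symbols, biotypes and exonic lengths came from a GENCODE annotation of GRCm38, the length being the median over the best-ranked principal transcripts. Of 48 samples, 47 had a matching column.

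All genes passing filterByExpr (minimum count 10) were fitted with edgeR 4.0.16 (R 4.3.3) after TMM scaling, with a robust quasi-likelihood fit, 1 mean for each of 12 groups, contrasts of knockout minus control, and a cosine and sine of 24 h per genotype. P-values were Benjamini-Hochberg adjusted over all 15646 genes (16463 without the 5 libraries), with a threshold of 0.05. CPM are TMM-scaled, and levels per kilobase use unscaled library totals. Shares of counts are of the library total, and the limit for 0 counts is 3 counts, covering counting error only. The scripts were tested on simulated data. No pair of libraries agreed within sampling noise (smallest chi-square per degree of freedom 3.23).

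The named members are those with the largest rise or fall over all times (6 each), the smallest adjusted p for rhythms (5 per test), the largest change at each time, the highest and lowest per kilobase (3 each), those at the edge of the CPM limit (2 each side), and members fixed by role. Genes of other lists are the 2 with the smallest adjusted p. Others were chosen after their values were seen, among them Rpl10 at CT17, the rhythmic genes without the 5 libraries, and Nop14. The members, lists and tests were chosen with earlier results of these data known.

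Alternatives were scaling (size factors of DESeq2 1.42.0, upper quartile, TMM without members), filters, limma-voom (limma 3.58.1), the DESeq2 Wald test, the length slope as a covariate, CT5 to CT17 only, an F test of time on 5 degrees of freedom, and leaving out each library or the 5. Leaving out knockout CT17 replicate 4 too was added after seeing the data.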

Additional observations from a re-analysis of the deposited data

Results flagged for a closer look

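In groups of 4 libraries, the highest or lowest library was set against the spread of its group for the share of counts in members and for 12 named members. Of 143 such group and measure pairs, 21 held a library far from the other 3. A rate of 1 in 20 would give 7.15 for independent pairs. These pairs share libraries, and the 12 members were named by their results, so 21 cannot be read as an excess over that rate. Among the 21, 14 were in the 5 libraries that stand apart.

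The share of counts was 3.92% in knockout CT21 replicate 4, where the others of its group lay at 1.84% to 2.19%. It was 3.52% in control CT21 replicate 1, where the others lay at 1.98% to 2.21%, and 2.82% in knockout CT17 replicate 4, where the others lay at 2.19% to 2.27%.

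In knockout CT21 replicate 4, Rpl9 was at 680.2 CPM (others 314.8 to 374.7), Rpl34 at 369.2 CPM (others 151.2 to 169.6) and Rpl38 at 313.4 CPM (others 106.0 to 135.1). The same library had Rps21 at 270.3 CPM (others 72.4 to 86.2), Rpl36 at 158.3 CPM (others 27.4 to 41.1) and Rpl13a at 21.8 CPM (others 15.2 to 16.1). In control CT21 replicate 1, Rpl9 was at 547.9 CPM (others 323.5 to 339.1), Rpl28 at 494.9 CPM (others 227.5 to 265.0) and Rpl34 at 276.4 CPM (others 149.8 to 168.8). It also had Rpl38 at 220.9 CPM (others 113.8 to 127.9), Rps27l at 154.3 CPM (others 102.3 to 107.4) and Rpl22l1 at 78.8 CPM (others 43.4 to 46.3).

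Outside the 5, knockout CT17 replicate 4 had Rpl7a at 639.5 CPM (others 493.3 to 509.7), Rpl28 at 449.7 CPM (others 276.6 to 298.9), Rps21 at 159.7 CPM (others 89.7 to 101.0) and Rpl36 at 104.6 CPM (others 48.0 to 57.5). Rpl7l1 was at 75.3 CPM in knockout CT5 replicate 3 (others 56.9 to 58.5). Rpl36 was at 113.7 CPM in control CT5 replicate 1 (others 42 to 46.4).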

How the results depend on the processing

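Counts are of the 80 members. Apart from the fit without the 5 libraries, the share of all genes called was not counted in these settings or with 1 library left out. A gain in members there cannot be told from a gain over all genes. Without the 5 libraries, 0 were higher at CT1 and 3 at CT17, and 3 were rhythmic in knockout and 8 in control. Leaving out knockout CT17 replicate 4 as well, an alternative chosen after seeing the data, gave 0 higher at CT1 and 1 at CT13, with 10 rhythmic in knockout and 13 in control. With the length slope as a covariate, 15 were higher over all times, 2 at CT1 and 10 at CT17, and 3 were rhythmic in knockout and 39 in control. Without a filter on low counts, 36 were higher at CT1, and 5 were rhythmic in knockout and 0 in control. Limma-voom called 3 rhythmic in knockout, and the DESeq2 Wald test 10 higher over all times. For these settings the cause was not tested.

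Leaving out 1 library at a time gave 6 to 47 higher over all times (47 without control CT21 replicate 1, 29 without knockout CT1 replicate 4, 10 without knockout CT1 replicate 1, and 18, 12 and 15 without knockout CT21 replicates 1, 2 and 3), 9 to 77 at CT1 (38, 9, 23 and 77 without knockout CT1 replicates 1, 2, 3 and 4, and 22, 28 and 33 without control CT1 replicates 1, 3 and 4), 3 to 62 rhythmic in knockout (10, 3, 4 and 42 without knockout CT1 replicates 1, 2, 3 and 4, 62, 41, 45 and 5 without knockout CT21 replicates 1, 2, 3 and 4, 39 without control CT21 replicate 1, and 11 and 12 without knockout CT9 replicates 2 and 4), 0 to 2 rhythmic in control (0 without control CT5 replicate 3 or 4), and 0 to 15 for the interaction (15 without knockout CT21 replicate 4). The median fold change of members changed sign in some settings: at CT1 it was -0.04 without the 5 libraries, at CT21 -0.02 without the 5 and -0.28 without knockout CT21 replicate 4, and at CT5 and CT9, where it was close to 0, it fell on either side. Rpl28 and Rpl7a passed the threshold in 11 of 11 settings other than single libraries left out. Rpl28, Rpl38, Rps27l, Rpl7a, Rpl9 and Rps19bp1 passed with each single library left out (largest adjusted p 0.0490, for Rpl9).

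No paired analysis was possible because the replicate numbers follow the order of the samples and pair none of them. Counts per member limit Rps19bp1 most, at a mean of 11.4 CPM.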
